A study of Homo sapiens with 11 samples.

Results

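The 47 genes described here encode chromatin remodellers and bromodomain proteins. They were chosen by symbol, with earlier results of these data known. Rows named BPTF, HELLS or ATRX were taken, with those of the CHD, SMARCA to SMARCE, ARID1 to ARID5, INO80 or BRD series. This gave 47 of the 31325 rows of the deposited values. By the complex or family of their products, 9 were placed in a CHD class, 12 in a SWI/SNF class, 3 in an ISWI class, 5 in an INO80 class and 7 in a BRD class, and 11 belonged to none of these. mRNA was measured on 11 Illumina HT-12 v4 arrays in 4 groups. MDA-MB-231, a mesenchymal-like human breast cancer line, was transfected with a miR-365a-3p mimic (3 arrays) or with a control miRNA (3 arrays), and SKOV3, a human ovarian cancer line with amplified ERBB2, with the same mimic (3 arrays) or control miRNA (2 arrays). The labels give 48 h after transfection for all 4 groups, but the series description says 24 h, and the study's text names the derivative SKOV3.ip1 where the labels name SKOV3. Nothing in the labels says that replicates were separate cultures, so the p-values measure the spread between these arrays, which may be technical.

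Chromatin remodellers are ATP-driven enzymes that slide, eject or exchange nucleosomes and thereby open or close DNA to transcription factors and polymerases. SWI/SNF complexes eject and slide nucleosomes at enhancers and promoters, ISWI complexes space nucleosomes evenly, CHD proteins read methylated histone tails and include the motor of the NuRD deacetylase complex, and the INO80 complex exchanges and slides nucleosomes that carry the histone variant H2A.Z. Bromodomains bind acetylated lysines, and BET proteins such as BRD2 and BRD3 use them to recruit the transcription machinery. Several SWI/SNF genes, ARID1A and SMARCA4 among them, are recurrently mutated in ovarian cancers.

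A miRNA represses mRNAs that pair with its seed, bases 2 to 8 from its 5′ end. The mature sequence is shown because it is the only difference between treated and control cells that the labels give, with the seed in capitals. RefSeq (GRCh38.p14) places it at chr16:14309340-14309361 on the plus strand, inside the lncRNA gene MIR193BHG, and an identical mature miRNA at chr17:31575478-31575499 on the plus strand, inside the lncRNA gene MIR365BHG. The library of mimics in the study's supplement holds the same sequence under the name miR-365.
hsa-miR-365a-3p: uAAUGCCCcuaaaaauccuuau
hsa-miR-365b-3p: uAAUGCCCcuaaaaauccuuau
Of 2370 mature human miRNAs in the RefSeq table, 2 carry this seed, and they are these. The letters in an mRNA that pair with it are, written as DNA with T for U, GGGCATT. Transcript sequences were not used here, so no member was searched for them.

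The values are log2 signals, 1 per gene and array, with a floor near 7.3 at which most genes lie. Their distributions differed between arrays, with an upper quartile of 7.56 to 7.80 on the miR-365a-3p arrays and 7.86 to 8.04 on the control arrays, so they were quantile normalized before the fit. A group mean under 8 is called near the floor, and a gene that reaches the floor may have changed by more than its log2 difference shows. Levels are therefore compared for a gene between groups, never between genes. Of the markers of the cell lines, ERBB2 (by 3.26), EPCAM (2.73), PAX8 (0.78) and KRT8 (1.01) were higher in SKOV3 than in MDA-MB-231 control arrays on the log2 scale, ESR1 (1.55) was higher too and near the floor in MDA-MB-231 cells, CDH1 was near the floor in both lines, and VIM, CAV1, CD44, MSN and KRT18 did not pass the test between them. With miR-365a-3p, CD44 and MSN fell in both lines, ERBB2 and PAX8 fell in SKOV3 cells, and KRT8 and EPCAM rose in MDA-MB-231 cells, EPCAM without a call on the deposited values (0.49, adjusted p = 0.073). Their part in the values below was not tested.

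A larger share of these genes than of all rows fell with miR-365a-3p, most of all SMARCA4, ARID1A, BRD2 and CHD4. In MDA-MB-231 cells 26 of the 47 genes fell, 7 rose and 14 did not pass the test (limma, adjusted p under 0.05), whereas 11.7% of all rows fell and 14.4% rose. In SKOV3 cells 16 fell, 3 rose and 28 did not pass, against 7.11% and 7.25% of all rows. The SKOV3 count rests on 2 controls, and leaving out control replicate 1 or 2 gave 11 or 7 falls. Among the 6853 rows with a mean above 8, 26.2% fell and 39% rose in MDA-MB-231 cells, and 15.3% fell and 23.4% rose in SKOV3 cells. As a median, the log2 signal of the 47 genes changed by -0.21 in MDA-MB-231 and -0.079 in SKOV3 cells, beside 0.0064 and 0.0066 over all rows. The same medians were -0.35 and -0.25 on the deposited values and -0.32 and -0.21 after median centring. In total RNA from a culture, a lower level in every cell and fewer cells with the transcript cannot be told apart.

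The same genes fell in both lines in 15 cases, while 5.39% of all rows did so. These were CHD4, CHD6, CHD7 and CHD8, SMARCA4, ARID1A, ARID2, SMARCC2 and SMARCD1, BPTF, INO80D, BRD1, BRD2 and BRD3, and ARID5B. Only SMARCA4, CHD4, CHD7, CHD8, BRD2 and BRD3 kept the call in both lines under all 20 alternative fits. In 20 of the 47 genes every miR-365a-3p array lay below every control array of its line in both lines, as it did in 10.3% of all rows. SMARCB1 and INO80E rose in both lines, as did 5.76% of all rows. A fall was called in MDA-MB-231 alone for 10 genes and in SKOV3 alone for SMARCA1, and HELLS fell in MDA-MB-231 and rose in SKOV3 cells. A call in a single line does not show that the lines differed. A test of that difference called HELLS only.

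The split between falls and rises depends on the scaling. On the deposited values, without further normalization, 32 of the 47 genes fell and 0 rose in MDA-MB-231 cells, and 23 fell and 0 rose in SKOV3 cells. After median centring of the arrays, 32 fell and 2 rose, and 21 fell and 0 rose. Quantile normalization moved the median change of all rows from -0.013 to 0.0064 in MDA-MB-231 cells, but that of the rows with a mean above 8 from -0.052 to 0.17 there and from -0.0041 to 0.15 in SKOV3 cells.

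**Figure D1:**
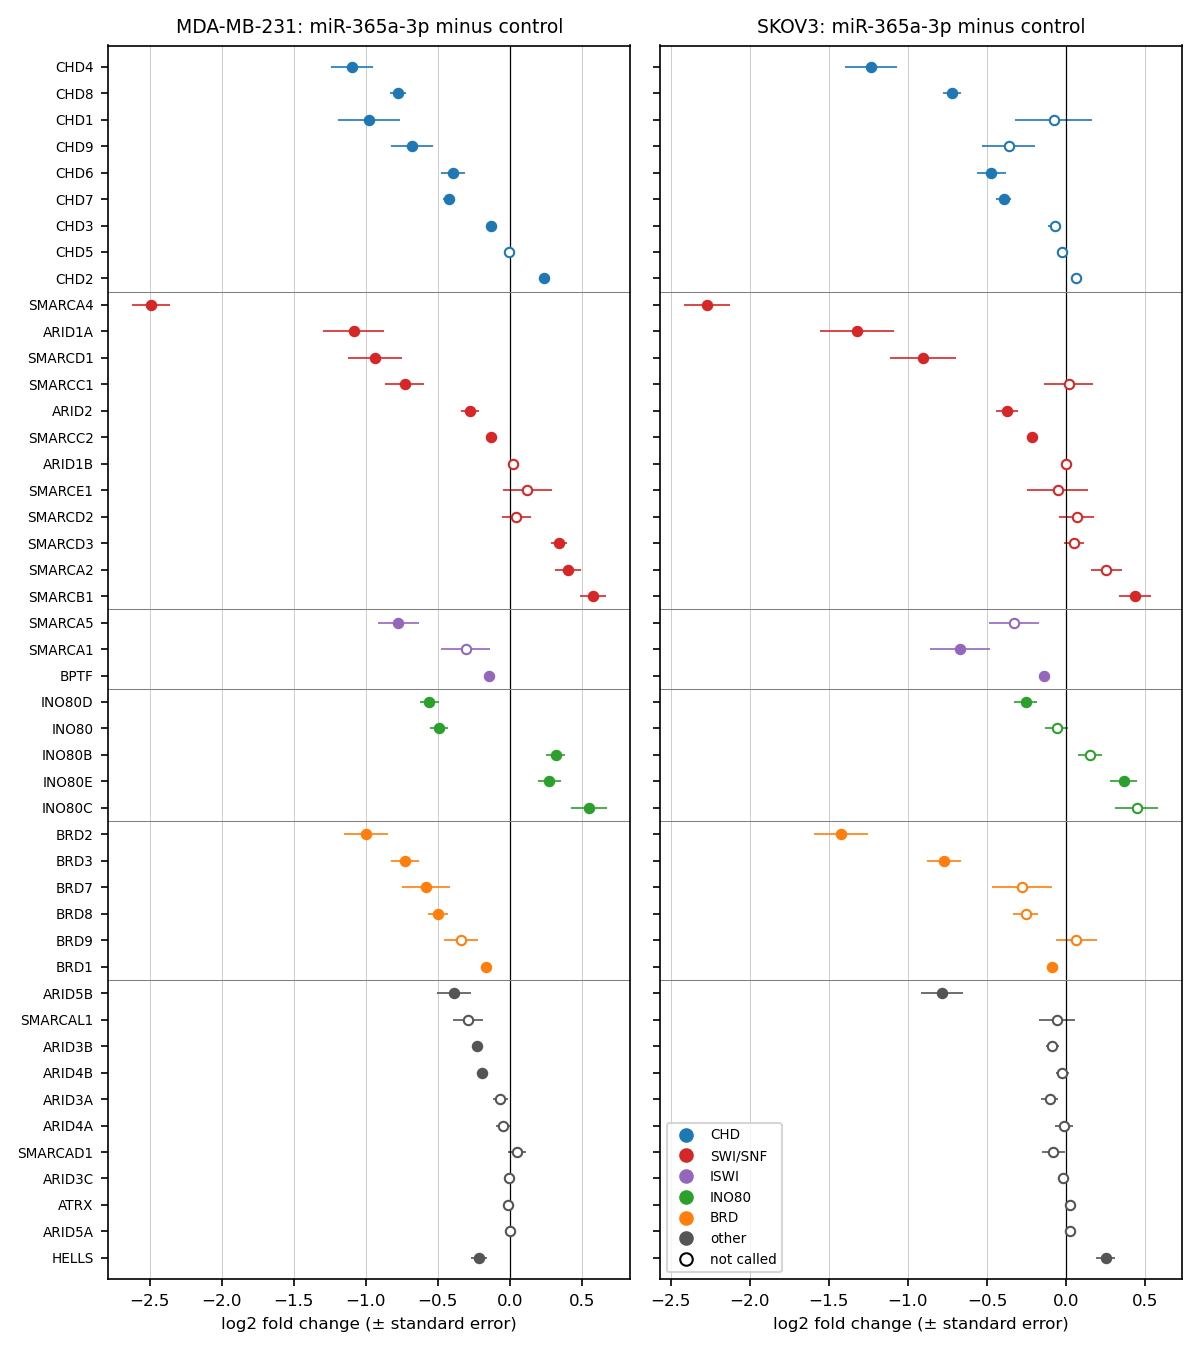
Log2 fold change (miR-365a-3p minus control miRNA, x axis) of 46 of the 47 genes (y axis, grouped by class) in MDA-MB-231 (left) and SKOV3 cells (right), with the standard error of the fit. Filled points passed the test, and SMARCA4 lies furthest to the left in both lines, at -2.49 and -2.27.

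Falls were called in all 5 classes in both lines, and rises mostly in the SWI/SNF and INO80 classes. Of the 47 genes 14.9% rose in MDA-MB-231 and 6.38% in SKOV3 cells, near the 14.4% and 7.25% of all rows. Among the rows with a mean above 8, 39% and 23.4% rose. Falls made up 55.3% and 34% of the 47 genes, against 11.7% and 7.11% of all rows. They made up 26.2% and 15.3% of the rows with a mean above 8. Of the 9 CHD genes 7 fell and 1 rose in MDA-MB-231 cells and 4 fell in SKOV3 cells. Of the 12 SWI/SNF genes 6 fell and 3 rose, and 5 fell and 1 rose. Of the 3 ISWI genes 2 fell in each line. The 5 INO80 genes split, with 2 that fell and 3 that rose in MDA-MB-231 cells and 1 of each in SKOV3 cells. Of the 7 BRD genes 5 fell in MDA-MB-231 and 3 in SKOV3 cells, and none rose in either. Of the 11 other genes 4 fell in MDA-MB-231 cells, and 1 fell and 1 rose in SKOV3 cells.

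The lowest class medians were those of the BRD, CHD and ISWI genes in both lines. The BRD class had a median of -0.50 (MDA-MB-231) and -0.26 (SKOV3) on the log2 scale, the CHD class -0.42 and -0.36, the ISWI class -0.31 and -0.33, the SWI/SNF class -0.054 and -0.028 and the remaining genes -0.064 and -0.025. The classes differ in how many genes were near the floor in all 4 groups. These were 2 of 7 BRD, 4 of 9 CHD, 1 of 3 ISWI, 4 of 12 SWI/SNF, 1 of 5 INO80 and 7 of 11 remaining genes. Their part in the medians was not tested. The INO80 class stood at 0.28 and 0.15, but at -0.051 and -0.094 on the deposited values and at -0.018 and -0.057 after median centring, so that its sign turned with the scaling. The other classes kept their sign with lower medians on the deposited values, at -0.84 and -0.41 for BRD, -0.60 and -0.63 for CHD, -0.65 and -0.54 for ISWI, -0.24 and -0.17 for SWI/SNF and -0.31 and -0.17 for the remaining genes. The SWI/SNF class held large falls under both scalings, and its rises were not called on the deposited values.

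**Figure D2:**
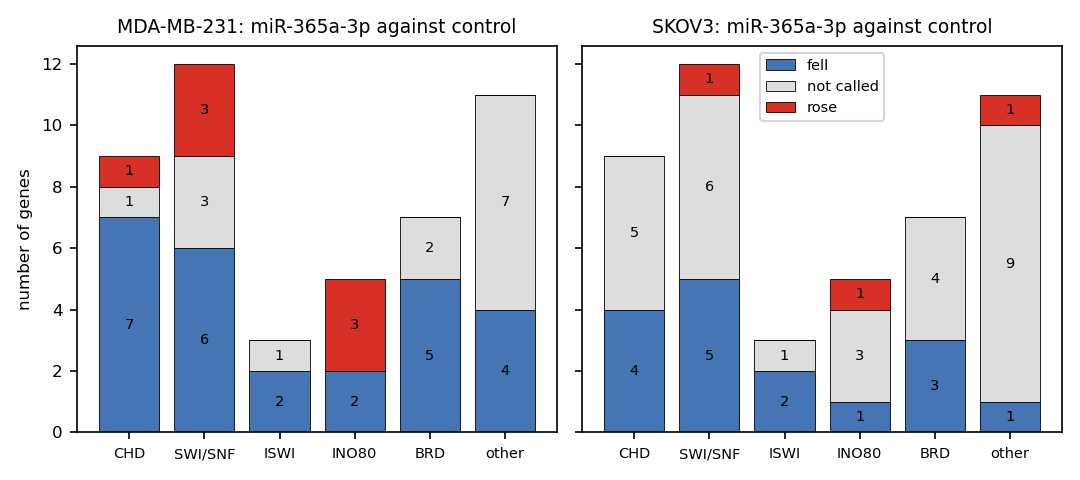
Number of genes (y axis) of each class (x axis) that fell, rose or did not pass the test with miR-365a-3p in MDA-MB-231 (left) and SKOV3 cells (right). The CHD and BRD bars are mostly falls in MDA-MB-231 cells (7 of 9 and 5 of 7), and the INO80 bar holds 3 rises and 2 falls there, of which none of the rises was called on the deposited values. Of all rows 11.7% fell and 14.4% rose in MDA-MB-231 cells, and 7.11% fell and 7.25% rose in SKOV3 cells.

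SMARCA4 (BRG1), an ATPase motor of SWI/SNF, fell the most of the 47 genes. In MDA-MB-231 cells its log2 signal was 10.23, 10.51 and 10.79 on the control arrays and 7.99, 8.01 and 8.06 on the miR-365a-3p arrays. In SKOV3 cells it was 10.62 and 10.62 on the control arrays and 8.17, 8.54 and 8.34 on the miR-365a-3p arrays. All treated arrays lay near the limit of 8, far below every control array. The log2 fold change, given here and below with its standard error, was -2.49 ± 0.13 in MDA-MB-231 cells, or 5.62-fold lower (adjusted p = 9.1e-06), and -2.27 ± 0.15 in SKOV3 cells, or 4.82-fold lower (adjusted p = 4.4e-05). SMARCA2 (BRM), the alternative motor, went the other way in MDA-MB-231 cells, from 9.21, 9.24 and 9.19 to 9.66, 9.66 and 9.53 (0.40 ± 0.09, adjusted p = 0.0085), with no overlap between the groups. In SKOV3 cells its values of 8.43 and 8.37 and 8.75, 8.78 and 8.42 did not pass the test (0.25 ± 0.10, adjusted p = 0.14). The rise of SMARCA2 was not called on the deposited values (0.18, adjusted p = 0.21), whereas the fall of SMARCA4 held under all 20 alternative fits.

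The DNA-binding ARID subunits define the forms of SWI/SNF. ARID1A, of the BAF form, read 7.79, 8.69 and 8.72 on the control arrays and 7.32, 7.33 and 7.31 on the miR-365a-3p arrays in MDA-MB-231 cells. Control replicate 1 stood apart from the other two (-1.39 without it), and every treated array was at the floor (-1.08 ± 0.21, adjusted p = 0.005). In SKOV3 cells ARID1A went from 8.63 and 8.74 to 7.33, 7.37 and 7.39 (-1.32 ± 0.24, adjusted p = 0.0063), a call that was lost without SKOV3 control replicate 2 (adjusted p = 0.064). ARID2, of the PBAF form, was near the floor in all groups and fell from 7.79, 7.63 and 7.62 to 7.40, 7.38 and 7.42 in MDA-MB-231 cells (-0.28 ± 0.06, adjusted p = 0.01) and from 7.88 and 7.94 to 7.42, 7.65 and 7.54 in SKOV3 cells (-0.38 ± 0.07, adjusted p = 0.0075). The SKOV3 call of ARID2 was lost under 2 of 20 alternative fits. ARID1B stayed between 7.31 and 7.36 on all 11 arrays, at the floor, where a fall could not be measured.

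The core and accessory subunits of SWI/SNF did not move together. SMARCD1, a BAF60 subunit that links the complex to transcription factors, fell from 8.42, 8.48 and 8.48 to 7.34, 7.62 and 7.60 in MDA-MB-231 cells (-0.94 ± 0.19, adjusted p = 0.0056). In SKOV3 cells it went from 8.87 and 8.93 to 7.54, 8.42 and 8.02, with the lowest value on replicate 1 (-0.91 ± 0.21, adjusted p = 0.021). That call was lost with the replicate block within the lines (adjusted p = 0.066), with SKOV3 fitted alone (0.141) and without SKOV3 control replicate 1 or 2 (0.103 and 0.142). SMARCD3, its counterpart in heart and skeletal muscle, rose from 7.48, 7.57 and 7.54 to 7.93, 7.87 and 7.80 in MDA-MB-231 cells (0.34 ± 0.06, adjusted p = 0.0022), though it stayed near the floor and was not called on the deposited values (0.091, adjusted p = 0.235). SMARCD2 did not pass the test in either line.

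SMARCC1 (BAF155) and SMARCC2 (BAF170) form the scaffold on which the complex is built. SMARCC1 fell in MDA-MB-231 cells from 9.76, 9.73 and 9.49 to 8.57, 9.08 and 9.14 (-0.73 ± 0.14, adjusted p = 0.0044), and was at the floor in SKOV3 cells with or without miR-365a-3p (7.502 and 7.51 against 7.48, 7.56 and 7.53). SMARCC2 fell in both lines but near the floor, from 7.46, 7.44 and 7.51 to 7.32, 7.38 and 7.32 in MDA-MB-231 cells (-0.13 ± 0.02, adjusted p = 0.0048) and from 7.57 and 7.59 to 7.36, 7.37 and 7.36 in SKOV3 cells (-0.21 ± 0.03, adjusted p = 0.0013). These shifts are small, and every treated array lay below the controls. With the replicate block within the lines, the MDA-MB-231 fall of SMARCC2 was not called (adjusted p = 0.052).

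SMARCB1 (INI1), the core subunit lost in rhabdoid tumours, rose in both lines and had the largest rise of the 47 genes in MDA-MB-231 cells. It read 8.02, 8.21 and 8.18 on the control arrays and 8.84, 8.71 and 8.60 on the miR-365a-3p arrays in MDA-MB-231 cells and 8.57 and 8.37 on the control arrays and 9.04, 8.79 and 8.87 on the miR-365a-3p arrays in SKOV3 cells. No treated array overlapped with the controls, and the rise was 0.58 ± 0.09 (adjusted p = 0.0017) and 0.43 ± 0.10 (adjusted p = 0.022). On the deposited values the rise was 0.21 and 0.17, and neither passed the test (adjusted p = 0.17 and 0.37). The SKOV3 call was also lost with the replicate block within the lines (adjusted p = 0.070). SMARCE1 (BAF57) had no called change, with 8.61, 9.04 and 9.04 on the control arrays and 8.87, 9.07 and 9.11 on the miR-365a-3p arrays in MDA-MB-231 cells. Its SKOV3 values were 9.94 and 10.30 on the control arrays and 9.76, 10.12 and 10.32 on the miR-365a-3p arrays.

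**Figure D3:**
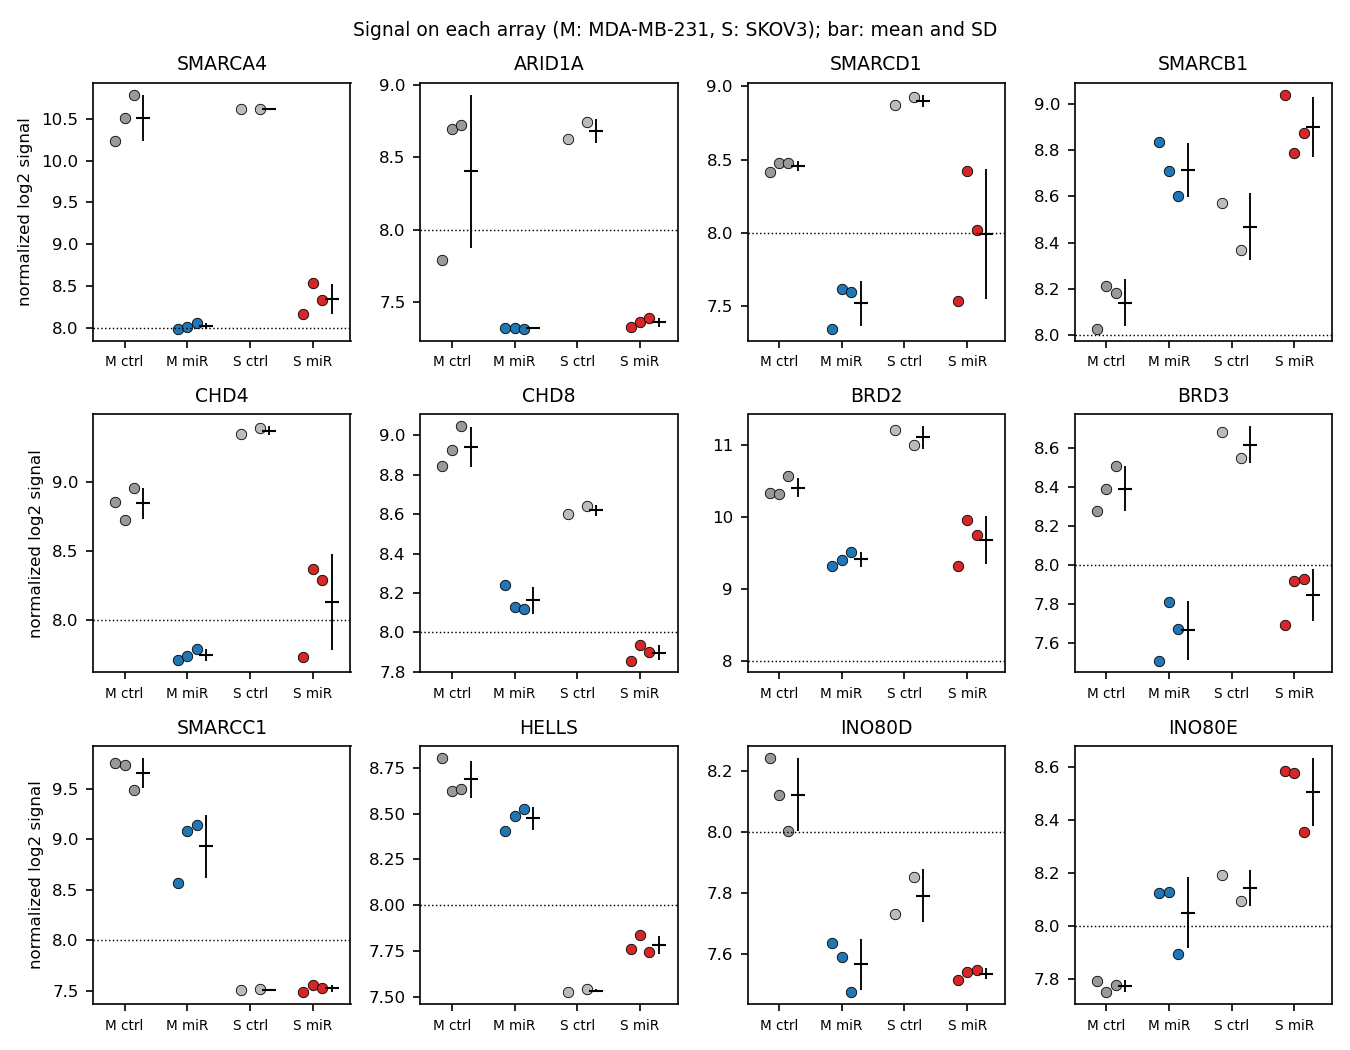
Normalized log2 signal (y axis, a different range in each panel) on each of the 11 arrays for 12 genes, in MDA-MB-231 (M) and SKOV3 (S) control and miR-365a-3p groups, with the mean and SD beside each group and a dotted line at 8. SMARCA4 drops from between 10.2 and 10.8 to between 7.99 and 8.54, SMARCB1 shifts up in both lines, and HELLS moves down in MDA-MB-231 and up in SKOV3 cells.

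CHD4 (Mi-2β), the motor of NuRD, had the largest fall of the CHD class. It read 8.85, 8.73 and 8.95 on the control arrays and 7.71, 7.74 and 7.80 on the miR-365a-3p arrays in MDA-MB-231 cells (-1.09 ± 0.15, adjusted p = 7.5e-04) and 9.34 and 9.39 on the control arrays and 7.73, 8.37 and 8.29 on the miR-365a-3p arrays in SKOV3 cells (-1.24 ± 0.16, adjusted p = 0.0015). The groups did not overlap, and the lowest SKOV3 value was again on replicate 1. CHD8, a regulator of Wnt signalling and a gene implicated in autism, had the smallest p of the class. Its values were 8.84, 8.93 and 9.05 on the control arrays and 8.24, 8.13 and 8.12 on the miR-365a-3p arrays in MDA-MB-231 cells and 8.60 and 8.64 on the control arrays and 7.86, 7.94 and 7.90 on the miR-365a-3p arrays in SKOV3 cells, with log2 fold changes of -0.78 ± 0.05 (adjusted p = 2.8e-05) and -0.72 ± 0.06 (adjusted p = 1.4e-04). The replicates of CHD8 lay close together, and its calls held under all 20 alternative fits.

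CHD7, the gene of CHARGE syndrome, and CHD6, its close relative, fell in both lines from low levels. CHD7 went from 7.76, 7.91 and 7.74 to 7.36, 7.38 and 7.41 in MDA-MB-231 cells (-0.42 ± 0.04, adjusted p = 2.0e-04) and from 7.84 and 7.86 to 7.46, 7.43 and 7.49 in SKOV3 cells (-0.39 ± 0.05, adjusted p = 0.001). CHD6 went from 7.995, 7.79 and 7.98 to 7.53, 7.49 and 7.57 (-0.39 ± 0.08, adjusted p = 0.0071) and from 8.09 and 8.08 to 7.43, 7.75 and 7.66 (-0.48 ± 0.09, adjusted p = 0.0091). The treated arrays of both genes were near the floor, and the SKOV3 call of CHD6 was lost under 3 of 20 alternative fits.

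CHD1, which binds trimethylated lysine 4 of histone H3, and CHD9 fell in MDA-MB-231 cells. CHD1 read 9.90, 9.43 and 9.78 on the control arrays and 8.65, 8.64 and 8.89 on the miR-365a-3p arrays there (-0.98 ± 0.22, adjusted p = 0.0097). In SKOV3 cells its treated arrays, 8.46, 9.40 and 8.82, lay on both sides of the controls, 8.94 and 8.995, and the difference did not pass the test (-0.08 ± 0.24, adjusted p = 0.93). CHD9 read 9.02, 8.56 and 8.59 on the control arrays and 8.10, 7.98 and 8.06 on the miR-365a-3p arrays in MDA-MB-231 cells (-0.68 ± 0.15, adjusted p = 0.0091) and 8.51 and 8.64 on the control arrays and 7.91, 8.36 and 8.36 on the miR-365a-3p arrays in SKOV3 cells (-0.36 ± 0.17, adjusted p = 0.22). The 3 treated SKOV3 arrays were below the controls, but replicate 1 lay far from the other two. The gap between the lines was 0.90 ± 0.33 for CHD1 and 0.31 ± 0.22 for CHD9, and neither passed the test of the difference (adjusted p = 0.27 and 0.67).

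The remaining CHD genes were near the floor in every group. CHD2 rose from 7.39, 7.43 and 7.41 to 7.65, 7.69 and 7.60 in MDA-MB-231 cells (0.24 ± 0.03, adjusted p = 5.0e-04), the single rise of the class, which was 0.082 and not called on the deposited values (adjusted p = 0.067), and CHD3 fell there (-0.13 ± 0.04, adjusted p = 0.03). In SKOV3 cells CHD2 went from 7.37 and 7.413 to 7.47, 7.48 and 7.414 without passing the test (0.06 ± 0.03, adjusted p = 0.30). CHD5, a neural gene, stayed between 7.30 and 7.41.

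Of the ISWI genes, SMARCA5 (SNF2H), the motor found in most cell types, fell in MDA-MB-231 cells from 9.15, 8.86 and 8.73 to 8.03, 8.19 and 8.20 (-0.77 ± 0.14, adjusted p = 0.0038). In SKOV3 cells it went from 9.01 and 9.07 to 8.46, 8.997 and 8.67 and did not pass the test (-0.33 ± 0.16, adjusted p = 0.26). SMARCA1 (SNF2L), the other motor, fell in SKOV3 cells from 9.21 and 9.17 to 8.25, 8.81 and 8.497 (-0.67 ± 0.19, adjusted p = 0.049), a call lost under 12 of 20 alternative fits. Its MDA-MB-231 values of 8.65, 8.12 and 8.22 and 7.91, 7.95 and 8.21 overlapped. BPTF, the subunit of the NURF complex that reads methylated and acetylated histones, was near the floor and fell from 7.51, 7.504 and 7.47 to 7.32, 7.40 and 7.34 in MDA-MB-231 cells (-0.14 ± 0.03, adjusted p = 0.0031) and from 7.48 and 7.52 to 7.36, 7.35 and 7.36 in SKOV3 cells (-0.14 ± 0.03, adjusted p = 0.011). The fall of BPTF in SKOV3 cells was not called with the replicate block within the lines (adjusted p = 0.083).

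Within the INO80 class, the motor INO80 and INO80D fell in MDA-MB-231 cells while the subunits INO80B, INO80C and INO80E rose there. INO80, the ATPase, went from 8.06, 8.02 and 7.999 to 7.43, 7.54 and 7.65 in MDA-MB-231 cells (-0.49 ± 0.06, adjusted p = 6.7e-04). In SKOV3 cells it was near the floor with control miRNA and did not pass the test (7.65 and 7.60 against 7.44, 7.64 and 7.61). INO80D went from 8.24, 8.12 and 8.004 to 7.64, 7.59 and 7.47 (-0.56 ± 0.06, adjusted p = 3.6e-04) and in SKOV3 cells from 7.73 and 7.85 to 7.51, 7.54 and 7.55 (-0.26 ± 0.07, adjusted p = 0.047). The SKOV3 call of INO80D was lost under 8 of 20 alternative fits.

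INO80E read 7.79, 7.75 and 7.78 on the control arrays and 8.13, 8.13 and 7.90 on the miR-365a-3p arrays in MDA-MB-231 cells (0.28 ± 0.08, adjusted p = 0.028) and 8.19 and 8.09 on the control arrays and 8.58, 8.58 and 8.36 on the miR-365a-3p arrays in SKOV3 cells (0.36 ± 0.09, adjusted p = 0.024). On the deposited values its MDA-MB-231 change was -0.051 (adjusted p = 0.70), so that the direction turned. Its SKOV3 change there was 0.073 (adjusted p = 0.66), and each call was lost under 8 of 20 alternative fits. INO80C rose from 8.07, 8.29 and 7.92 to 8.85, 8.67 and 8.41 in MDA-MB-231 cells (0.55 ± 0.12, adjusted p = 0.01), and its SKOV3 values of 8.30 and 8.39 and 8.88, 8.67 and 8.81 did not overlap and did not pass the test (0.44 ± 0.14, adjusted p = 0.068). INO80B rose in MDA-MB-231 cells (0.32 ± 0.07, adjusted p = 0.0074) near the floor. Neither INO80B nor INO80C was called on the deposited values, where they were 0.11 and 0.18 higher.

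BRD2 and BRD3, both BET genes, fell in both lines. BRD2 read 10.33, 10.32 and 10.56 on the control arrays and 9.31, 9.39 and 9.52 on the miR-365a-3p arrays in MDA-MB-231 cells and 11.21 and 10.99 on the control arrays and 9.32, 9.96 and 9.75 on the miR-365a-3p arrays in SKOV3 cells. It stayed above the floor throughout, no groups of a line overlapped, and the log2 fold changes were -0.996 ± 0.15 (adjusted p = 0.0015) and -1.42 ± 0.17 (adjusted p = 9.3e-04), or 1.99-fold and 2.68-fold lower. BRD3 went from 8.27, 8.39 and 8.505 to 7.51, 7.81 and 7.67 (-0.73 ± 0.10, adjusted p = 7.3e-04) and from 8.68 and 8.55 to 7.69, 7.92 and 7.92 (-0.77 ± 0.11, adjusted p = 0.0019). The calls of BRD2 and BRD3 held under all 20 alternative fits.

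The other BRD genes moved less. BRD8, a subunit of the NuA4/TIP60 acetyltransferase complex, fell in MDA-MB-231 cells from 8.76, 8.71 and 8.71 to 8.04, 8.31 and 8.33 (-0.50 ± 0.07, adjusted p = 9.4e-04), and in SKOV3 cells was lower on every treated array without passing (-0.26 ± 0.08, adjusted p = 0.063). BRD7, of the PBAF form of SWI/SNF, fell in MDA-MB-231 cells (-0.58 ± 0.17, adjusted p = 0.033), with replicate 1 at 8.04 and the other treated arrays at 8.52 and 8.57, and the call was lost under 8 of 20 alternative fits, that without replicate 1 among them. BRD9, of the non-canonical BAF form, did not pass in either line (-0.34 ± 0.12 and 0.06 ± 0.13). BRD1, a scaffold of histone acetyltransferases, was near the floor and went from 7.63, 7.61 and 7.66 to 7.47, 7.47 and 7.47 (-0.16 ± 0.02, adjusted p = 5.1e-04) and from 7.65 and 7.61 to 7.55, 7.52 and 7.54 (-0.09 ± 0.02, adjusted p = 0.031). The SKOV3 call of BRD1 was lost under 9 of 20 alternative fits.

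Of the genes outside these classes, ARID5B, a partner of the demethylase PHF2, fell in both lines. It read 8.18, 7.80 and 8.02 on the control arrays and 7.54, 7.58 and 7.73 on the miR-365a-3p arrays in MDA-MB-231 cells (-0.39 ± 0.12, adjusted p = 0.046) and 8.59 and 8.70 on the control arrays and 7.62, 7.998 and 7.96 on the miR-365a-3p arrays in SKOV3 cells (-0.79 ± 0.14, adjusted p = 0.0056). The fall was smaller and the arrays closer to overlap in MDA-MB-231 cells, where the call was lost under 10 of 20 alternative fits. ARID3B fell in MDA-MB-231 cells near the floor, from 7.71, 7.65 and 7.66 to 7.45, 7.43 and 7.46 (-0.22 ± 0.04), as did ARID4B (-0.19 ± 0.04). In SKOV3 cells ARID3B went from 7.51 and 7.52 to 7.43, 7.50 and 7.34 without passing the test (-0.09 ± 0.04, adjusted p = 0.22). ATRX, ARID3C and ARID5A stayed at 7.29 to 7.37 on all arrays, and ARID3A, ARID4A, SMARCAD1 and SMARCAL1 passed in neither line. These 4 were called lower on the deposited values in MDA-MB-231 cells (-0.19, -0.25, -0.31 and -0.63), where SMARCAD1 turned from 0.051, and ARID3A and SMARCAD1 in SKOV3 cells too (-0.25 and -0.32).

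HELLS (LSH), a remodeller needed for DNA methylation, was the only member whose response was called as different between the lines, beside 2.54% of all rows. It read 8.80, 8.62 and 8.63 on the control arrays and 8.41, 8.49 and 8.53 on the miR-365a-3p arrays in MDA-MB-231 cells and 7.53 and 7.54 on the control arrays and 7.76, 7.84 and 7.75 on the miR-365a-3p arrays in SKOV3 cells. Every treated array was below the controls in MDA-MB-231 cells (-0.21 ± 0.05, adjusted p = 0.017) and above them in SKOV3 cells (0.25 ± 0.06, adjusted p = 0.024), where the gene was near the floor. The difference was 0.46 ± 0.08 (adjusted p = 0.021). It was not called with the replicate block shared by the lines (0.47, adjusted p = 0.069), with the block within them (0.48, adjusted p = 0.215), with an intensity trend (0.46, adjusted p = 0.086), without MDA-MB-231 miR-365a-3p replicate 2 (0.47, adjusted p = 0.055) or without SKOV3 control replicate 1 or 2 (0.45 and 0.47, adjusted p = 0.108 and 0.103). Within the lines, the rise in SKOV3 cells was lost under 8 of 20 alternative fits, among them the replicate block shared by the lines (adjusted p = 0.055) and within them (adjusted p = 0.141), and the fall in MDA-MB-231 cells under 4 of 20, among them the block within the lines (adjusted p = 0.101). On the deposited values HELLS changed by -0.57 in MDA-MB-231 and 0.071 in SKOV3 cells, the latter not called (adjusted p = 0.692), and the difference of 0.64 was called (adjusted p = 0.019). At an unadjusted p under 0.05, 13 of the 47 genes and 4012 of all rows differed.

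The floor limits what can be said of many members. Of the 47 genes 19 had a mean under 8 in all 4 groups, and 13 were above it in all 4. From above to below 8 went 7 genes in MDA-MB-231 cells (SMARCD1, ARID1A, CHD4, INO80, INO80D, BRD3 and ARID5B) and 6 in SKOV3 cells (SMARCD1, ARID1A, CHD6, CHD8, BRD3 and ARID5B).

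Replicate 1 of the treated arrays held the lowest value of its group in 25 of the 47 genes (53.2%) in SKOV3 cells and in 20 (42.6%) in MDA-MB-231 cells, beside 37.6% and 44.7% of the rows with a mean above 8. Among the genes called as falling, a set that a low treated array helps to enter, it was lowest in 13 of 16 in SKOV3 and 15 of 26 in MDA-MB-231 cells, with medians of -0.20 and -0.046 relative to the mean of the other two treated arrays. Without that array, 14 genes fell in SKOV3 and 23 in MDA-MB-231 cells. Its part in the other values was not tested.

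The lines differed in several members with control miRNA alone, most of all in SMARCC1, HELLS and SMARCE1. The comparison of control arrays uses the same controls as the comparisons above, so its values are given on their own. Among the 6853 rows with a mean above 8, 20% were lower and 19.2% higher in SKOV3 than in MDA-MB-231 controls. Of all rows these were 7.76% and 8.34%, and of the 47 genes 11 were lower and 7 higher. SMARCC1 was the furthest apart, at 9.76, 9.73 and 9.49 in MDA-MB-231 and 7.502 and 7.51 in SKOV3 cells (-2.15 ± 0.15, adjusted p = 2.9e-05), followed by HELLS (-1.15 ± 0.06, adjusted p = 4.3e-06) and SMARCA2, at 9.21, 9.24 and 9.19 and 8.43 and 8.37 (-0.82 ± 0.10, adjusted p = 5.1e-04). SMARCC1 and HELLS were near the floor in SKOV3 and well above it in MDA-MB-231 cells. CHD1 was lower on both SKOV3 controls than on any MDA-MB-231 control and did not pass the test (-0.73 ± 0.24, adjusted p = 0.083). The called genes BRD8 (-0.40 ± 0.08, adjusted p = 0.0072), the ATPase INO80 (-0.40 ± 0.07, adjusted p = 0.0046) and SMARCAL1 (-0.40 ± 0.12, adjusted p = 0.048) followed, lower by nearly the same amount, and INO80D (-0.33 ± 0.07), CHD8 (-0.32 ± 0.06), SMARCAD1, ARID4A and ARID3B were lower by less. BRD8, CHD8 and SMARCAL1 were not called on the deposited values (adjusted p = 0.18, 0.15 and 0.13) or after median centring. The call of SMARCAL1 was lost under 13 of 18 alternative fits.

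SMARCE1 had the largest excess in SKOV3 over MDA-MB-231 cells, at 9.94 and 10.30 against 8.61, 9.04 and 9.04 (1.23 ± 0.19, adjusted p = 0.0024). SMARCA1 (0.86 ± 0.19, adjusted p = 0.014), BRD2 (0.70 ± 0.17, adjusted p = 0.023) and ARID5B (0.64 ± 0.14, adjusted p = 0.011) were also higher. SMARCD2, INO80E and SMARCC2 made up the 7. With 2 SKOV3 controls, many of these calls depended on a single array, and 5 of the 18 (SMARCC1, HELLS, SMARCA2, INO80 and SMARCE1) held under all 18 alternative fits. Without SKOV3 control replicate 1, 6 of the 18 kept their call, and without replicate 2, 7 did. SMARCA4, ARID1A and CHD4 did not pass the test between the lines (adjusted p = 0.81, 0.6 and 0.066).

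**Figure D4:**
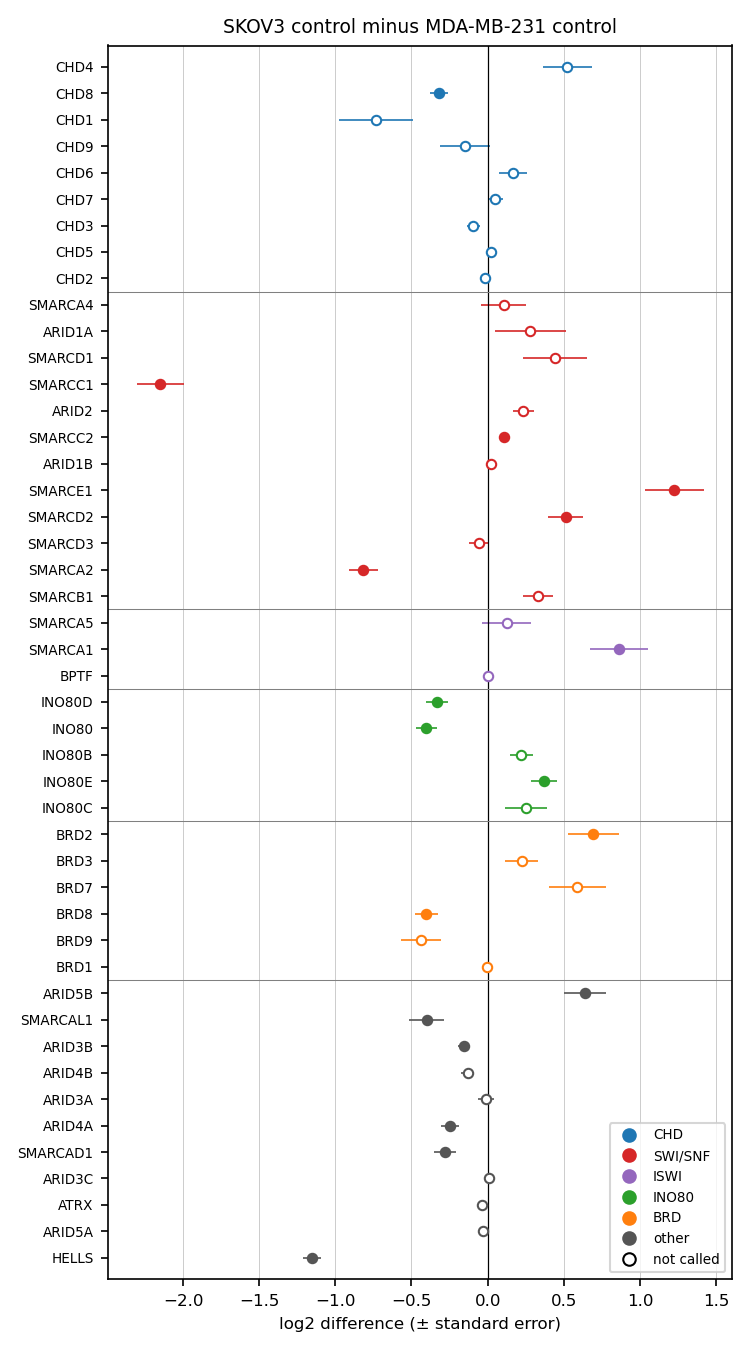
Log2 difference (SKOV3 control minus MDA-MB-231 control, x axis) of 46 of the 47 genes (y axis, grouped by class), with the standard error of the fit and filled points for those that passed the test. SMARCC1 at -2.15 and HELLS at -1.15 lie at the left end and SMARCE1 at 1.23 at the right.

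Partners of these proteins in the same complexes were looked up from a fixed list. Over all rows 11.7% fell and 14.4% rose in MDA-MB-231 cells, and 7.11% and 7.25% in SKOV3 cells. Among the rows with a mean above 8 the shares were 26.2% and 39%, and 15.3% and 23.4%. These shares stand beside all counts of partners and further bromodomain genes below. Of the 15 SWI/SNF partners 6 fell and 2 rose in MDA-MB-231 cells and 4 fell and 2 rose in SKOV3 cells. The falls called in both were ACTB, BICRA, BICRAL and DPF2, the last a reader of acylated histones, and the rises were ACTL6A and BCL7C, of which BCL7C was not called on the deposited values (0.095 and 0.22 higher). ACTB, which is β-actin of the cytoskeleton and also a subunit of SWI/SNF and INO80, went from 13.02, 13.52 and 13.53 to 9.43, 10.24 and 10.55 in MDA-MB-231 cells (-3.28 ± 0.34, adjusted p = 2.0e-04) and from 13.33 and 13.46 to 10.21, 10.89 and 11.29 in SKOV3 cells (-2.59 ± 0.38, adjusted p = 0.0024). ACTB is often taken as a control gene, and what its fall says of the other values was not tested.

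Of the 10 NuRD partners of CHD4, 6 fell and 2 rose in MDA-MB-231 cells and 4 fell and 1 rose in SKOV3 cells. The MDA-MB-231 rise of MBD3 (0.20) was -0.18 on the deposited values. GATAD2A, which links the deacetylase core to CHD4, fell from 9.71, 9.89 and 9.76 to 7.63, 7.75 and 7.72 (-2.08 ± 0.16, adjusted p = 4.9e-05) and from 9.67 and 9.59 to 7.68, 8.43 and 8.23 (-1.52 ± 0.18, adjusted p = 8.9e-04). MTA1 and GATAD2B also fell in both. The 2 deacetylases parted, as HDAC2 rose in both lines (0.91 ± 0.16 and 0.66 ± 0.18, adjusted p = 0.0035 and 0.044, and by 0.89 and 0.65 on the deposited values) and HDAC1 fell in MDA-MB-231 cells (-1.14 ± 0.27, adjusted p = 0.013) and did not pass in SKOV3 cells (-0.64 ± 0.30, adjusted p = 0.24).

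Among the 10 ISWI partners 5 fell in MDA-MB-231 cells (BAZ1A, BAZ1B, BAZ2B, CHRAC1 and RBBP4) and RBBP4 alone in SKOV3 cells, and none rose, whereas on the deposited values 6 fell in MDA-MB-231 cells and 4 fell and 1 rose in SKOV3 cells. Among the 9 INO80 partners 1 fell and 3 rose in MDA-MB-231 cells, while SKOV3 cells had 1 fall and 2 rises, with ACTR5 (0.58 ± 0.06 and 0.32 ± 0.06) and MCRS1 (0.45 ± 0.07 and 0.41 ± 0.08) higher in both. Of 7 genes of the SRCAP and EP400 complexes, which load H2A.Z, 5 rose and 1 fell in MDA-MB-231 cells, while SKOV3 cells had 2 rises and 2 falls. The motor EP400 fell in both (-0.63 ± 0.09 and -0.72 ± 0.10), while the small subunits YEATS4 (0.85 ± 0.21 and 1.12 ± 0.24) and ACTR6 (1.17 ± 0.20 and 0.93 ± 0.22) rose in both. On the deposited values the rises numbered 2 and 1 in the INO80 list and 1 and 2 in the SRCAP and EP400 list, with ACTR6 called in both lines. DMAP1 was called as different between the lines (-0.42, adjusted p = 0.034), but not on the deposited values (-0.25, adjusted p = 0.55). Its rise of 0.34 in MDA-MB-231 cells was -0.0060 on the deposited values. Of the 3 partners of ATRX and HELLS, CDCA7, which recruits HELLS to chromatin, fell in MDA-MB-231 cells (-1.52 ± 0.16, adjusted p = 2.4e-04) and did not pass in SKOV3 cells (-0.60 ± 0.18, adjusted p = 0.059).

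Of 14 further bromodomain genes 7 fell in MDA-MB-231 and 5 in SKOV3 cells, and 0 rose in either. The 5 called in both were BRPF3, PHIP, BRPF1, CREBBP and EP300. BRPF3, a scaffold of the HBO1 acetyltransferase, went from 9.17, 9.30 and 9.28 to 7.59, 7.59 and 7.50 in MDA-MB-231 cells (-1.69 ± 0.05, adjusted p = 7.4e-07) and from 8.36 and 8.30 to 7.67, 7.75 and 7.62 in SKOV3 cells (-0.65 ± 0.05, adjusted p = 1.4e-04). The MDA-MB-231 fall was larger by 1.04 (adjusted p = 3.4e-04), from a higher control level, and ended near the floor in both lines. The acetyltransferases CREBBP (-0.49 ± 0.12 and -1.10 ± 0.13) and EP300 (-0.17 ± 0.04 and -0.47 ± 0.04) ended at the floor in both lines, and the difference between lines passed for EP300 (-0.30, adjusted p = 0.023). EP300 was near the floor in all 4 groups, with control means of 7.49 in MDA-MB-231 and 7.77 in SKOV3 cells, so the floor limits this comparison. ATAD2 and KAT2B fell in MDA-MB-231 cells (-1.08 ± 0.24 and -1.02 ± 0.16).

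**Figure D5:**
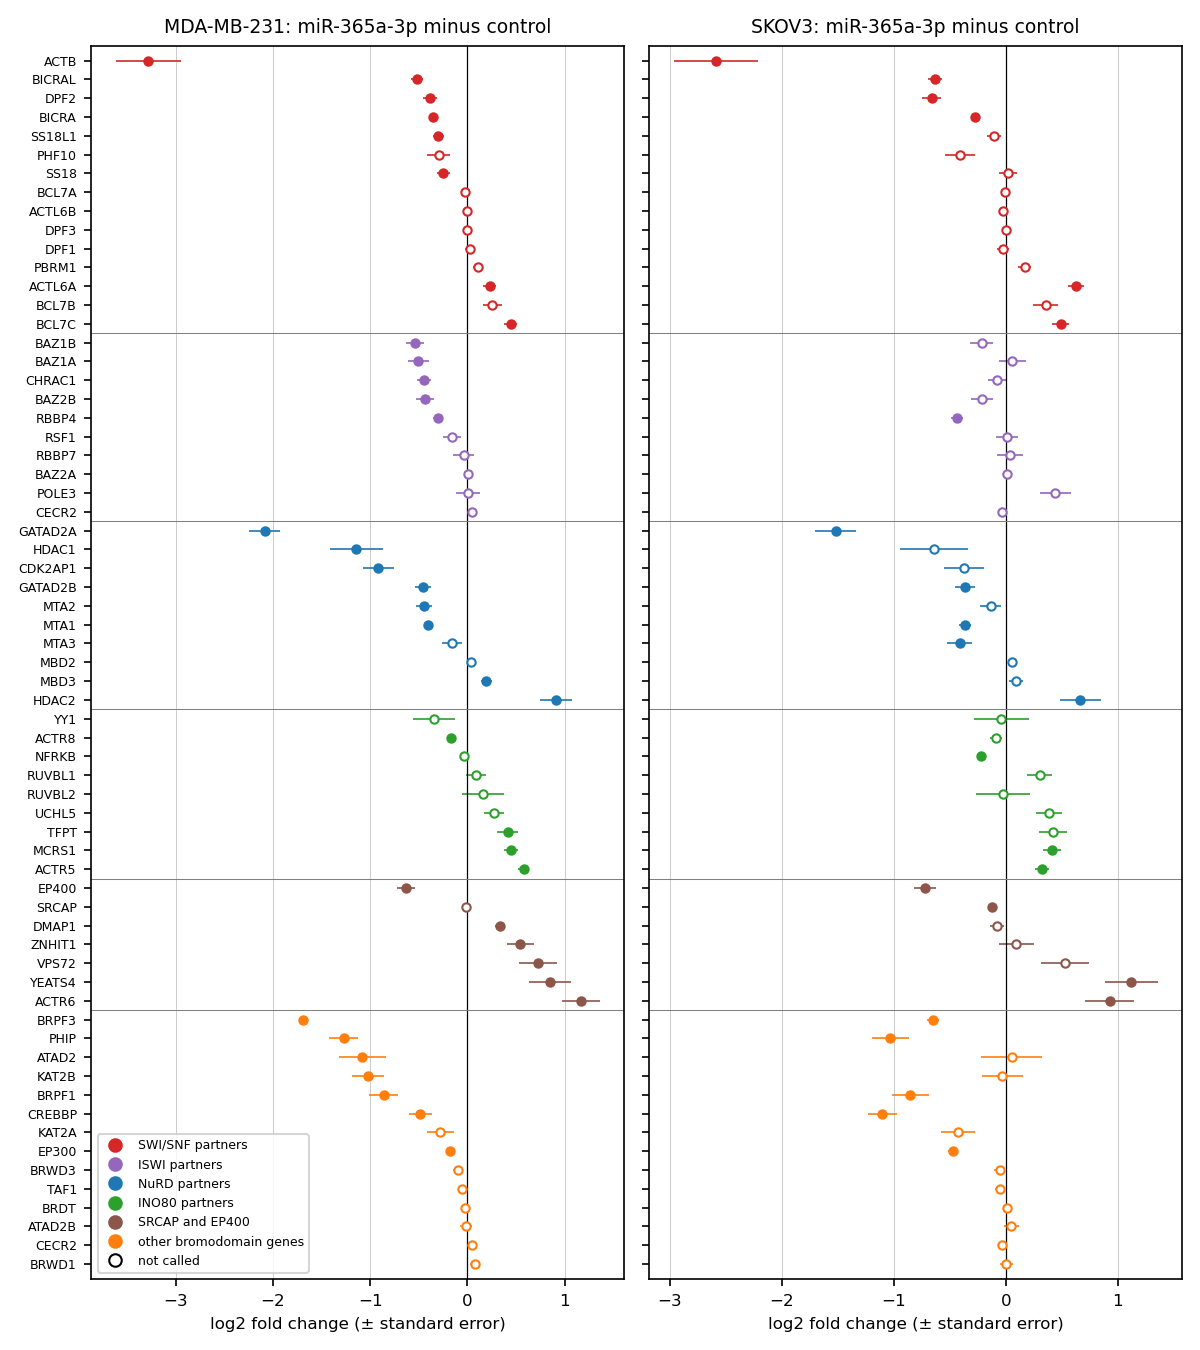
Log2 fold change (miR-365a-3p minus control miRNA, x axis) of the partner and further bromodomain genes (y axis, grouped by list; CECR2 stands in 2 lists) in MDA-MB-231 (left) and SKOV3 cells (right), with the standard error of the fit. ACTB lies furthest to the left in both lines, at -3.28 and -2.59, and filled points of the INO80, SRCAP and EP400 lists lie mostly to the right of 0, fewer of them called on the deposited values.

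The promoters of SMARCA4 and SMARCB1 are shown because these subunits of the same complex were called in opposite directions after quantile normalization, and were chosen after their values were seen. The rise of SMARCB1 was not called on the deposited values (0.21 in MDA-MB-231 and 0.17 in SKOV3 cells). RefSeq promoter windows, 250 bases before to 50 after the start, were at hand for 36 of the 47 genes, with the most upstream start where several were listed. The GC box GGGCGG, read on both strands, was present in 26 of these 36 (72.2%), beside 44.5% of 27305 promoters, and in 8 of the 10 (80.0%) that fell in both lines and 5 of the 7 (71.4%) that rose in MDA-MB-231 cells. The ETS motif CCGGAAG was present in 5 of 36 (13.9%, beside 10.6%) and TATAAA in 1 (2.78%, beside 12%), both strands read, and none of the 3 motifs contains another. The 2 windows below have the GC boxes in capitals, with 5 in SMARCA4 and 1 in SMARCB1, and neither holds the ETS motif. SMARCA4 lies at chr19:10960780-10961079 and SMARCB1 at chr22:23786716-23787015, both on the plus strand (GRCh38.p14).
SMARCA4: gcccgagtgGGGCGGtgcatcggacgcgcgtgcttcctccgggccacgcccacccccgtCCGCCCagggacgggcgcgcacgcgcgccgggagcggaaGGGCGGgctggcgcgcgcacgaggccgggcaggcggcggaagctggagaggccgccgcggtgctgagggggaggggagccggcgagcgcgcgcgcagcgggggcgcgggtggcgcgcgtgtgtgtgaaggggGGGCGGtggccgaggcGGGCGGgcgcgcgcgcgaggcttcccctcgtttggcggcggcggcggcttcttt
SMARCB1: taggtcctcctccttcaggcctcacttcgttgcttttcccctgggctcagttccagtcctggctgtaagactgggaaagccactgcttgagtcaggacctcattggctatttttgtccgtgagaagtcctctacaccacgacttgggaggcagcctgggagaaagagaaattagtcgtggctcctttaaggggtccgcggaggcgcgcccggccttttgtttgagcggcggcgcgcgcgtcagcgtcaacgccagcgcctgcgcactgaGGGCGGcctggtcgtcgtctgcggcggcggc
The windows differed in base composition, with 55 CpG and 81.3% G or C in SMARCA4 and 25 CpG and 61.7% in SMARCB1. These counts describe the windows and were not tested against the responses.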

How the data were processed

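RNA extracted from the transfected cells was amplified to biotinylated cRNA and hybridized to Illumina HT-12 v4 BeadChips. Per the study's methods, the authors applied lumi's quantile normalization, and they deposited log2 values, 1 for each symbol on each array. The transformation (log2 or variance stabilizing), the rule that combined probes and any background correction are not given in the sources used here, and no detection values were used. The deposited columns did not share a distribution, and quantile normalization over all 11 arrays was applied (limma 3.58.1, R 4.3.3). A model with 4 group means was fitted to all 31325 rows (lmFit), eBayes was applied to the contrasts, and Benjamini-Hochberg adjustment over all rows with a threshold of 0.05 set the calls. The number of arrays limits the precision. The fit was tested on simulated data.

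The 47 genes, the classes, the lists of partners and the rule for naming genes were chosen with earlier results of these data known. Values on every array are given for the called members with the 2 largest falls and rises of each class, those called in both lines or for the difference, CHD8, CHD9, BPTF, SMARCA1, SMARCC1 and HELLS, and the 4 furthest apart in each direction between the controls. BICRA and BICRAL were found under the older symbols GLTSCR1 and KIAA0240. Alternatives were the deposited values, median centring, cyclic loess, each line alone, replicate blocks, a filter on low rows, an intensity trend, array weights, stricter thresholds and each array left out in turn. Protein sequences were not used here. Of the 47 genes, 1 is counted but not reported here.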

Additional observations from a re-analysis of the deposited data

Results flagged for a closer look

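HELLS was called as responding differently in the 2 cell lines, as were 2.54% of all rows. That call was lost under 6 of 19 alternative fits, among them both replicate blocks. The SKOV3 difference minus the MDA-MB-231 difference was 0.461 on the log2 scale (limma, adjusted p = 0.021), lower on 3 of 3 treated arrays in MDA-MB-231 and higher on 3 of 3 in SKOV3 cells than on any control array of the line. HELLS was near the floor in SKOV3 cells, where its rise was not called on the deposited values (0.071, adjusted p = 0.692).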

How the results depend on the processing

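In MDA-MB-231 cells 21 of the 33 called changes, in SKOV3 cells 7 of 19, between the controls 5 of 18 and for the difference 0 of 1 kept their call under all alternative fits. On the deposited values 0 genes rose in either line and 2 differed between the lines (HELLS and INO80), and INO80E turned to -0.051 in MDA-MB-231 cells. With median centring 2 rose in MDA-MB-231 and 0 in SKOV3 cells, 3 differed, and INO80E stood at -0.018. With cyclic loess 1 rose in SKOV3 cells, 2 differed, and 6 were lower and 14 higher in SKOV3 controls. With only rows above the median mean 2 differed, and with array weights 5 differed and 13 were higher in SKOV3 controls. At an adjusted p under 0.01, 0 rose in SKOV3 cells, 0 differed, and 6 were lower and 1 higher in SKOV3 controls. At an adjusted p under 0.05 and a log2 fold change of at least 0.5, 13 fell and 2 rose in MDA-MB-231 cells, 9 fell and 0 rose in SKOV3 cells, 0 differed and 3 were lower in SKOV3 controls. The causes were not tested.

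Deviations from the group mean were correlated between same-numbered arrays over the 6853 rows with a mean above 8. Within a line, r was -0.125, 0.0424 and 0.232 in MDA-MB-231 and 0.0391 and -0.073 in SKOV3 cells. Between treated arrays of the 2 lines, r was higher, at 0.695, 0.311 and 0.344. The 2 SKOV3 controls deviate by equal and opposite amounts, so the 2 SKOV3 values are not independent. With the replicate block within lines, 22 genes fell and 7 rose in MDA-MB-231 cells, 12 fell and 2 rose in SKOV3 cells, and 0 differed. With the replicate block shared by the lines, the counts were 25, 7, 14 and 4, and 0 differed. With each array left out in turn, 23 to 27 genes fell and 6 to 7 rose in MDA-MB-231 cells, 7 to 16 fell and 0 to 4 rose in SKOV3 cells, 0 to 3 differed, and 5 to 12 were lower and 1 to 13 higher in SKOV3 controls. The low ends in SKOV3 cells came without control replicate 2 (7 falls), and of the SKOV3 controls without replicate 1 or 2 (1 higher in each). A lone SKOV3 control was assumed to vary like the other groups. Signal near the floor limits the 19 genes under 8 in every group.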
